A study of Caenorhabditis elegans with 63 samples.

Results

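The microRNAs (miRNAs) made from mir-238, mir-239a and mir-239b of Caenorhabditis elegans were followed through a series on drsh-1, the worm gene for the nuclease Drosha. They were chosen by name, as every measured arm of these 3 hairpins: 6 arms of 278, from 3 hairpins of 139. An arm is the small RNA cut from the 5′ side (5p) or the 3′ side (3p) of a hairpin, and a star marks the rarer strand as the deposited tables name it. Small RNA of whole worms grown at 20 °C was sequenced in 63 libraries that fall into 23 groups. With the NEBNext kit, which joins fixed adaptors to the RNA ends, 22 libraries were made. They are drsh-1(cdb328), drsh-1(cdb330) and wild type, each as Adults and as larvae of the fourth stage (L4), with 3 libraries per group, and a pair of tagged Adult strains with 2 libraries each. The first tagged strain has the genotype drsh-1::gfp;tdp-1::mScarlet, with a fluorescent tag on drsh-1 and on tdp-1, whose human relative is TDP-43. The second tagged strain carries drsh-1(null) over those same tagged alleles. With adaptors that carry degenerate bases, called bias-minimized here, 41 libraries were made. Of these, 9 are drsh-1(cdb328), drsh-1(cdb330) and wild-type Adults (n = 3 each). The other 32 form the mir-80 series, which combines mutant or wild-type drsh-1 with 5 alleles of mir-80, another miRNA gene, in 12 groups of 2 or 3 libraries. Its drsh-1 mutants are named drsh-1(cdb263 cdb328), alone and with mir-80 cdb493, cdb494, cdb495 or cdb496, and drsh-1(cdb328) with mir-80(cdb530). Its controls are the same 5 mir-80 alleles with drsh-1 intact, and wild type. The labels give no stage for this series and do not say what any allele changes in the gene or in the protein.

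In the nucleus Drosha releases miRNA hairpins from long primary transcripts, and Dicer then frees a short duplex from it. One strand of the duplex is kept by an Argonaute protein and pairs with target mRNAs through its seed, the bases after its first one, while the other strand is mostly lost. mir-238, mir-239a and mir-239b form the miR-238 seed family, with the kept strand on the 3p arm of mir-238 and on the 5p arm of mir-239a and mir-239b. In worms, loss of mir-238 has been reported to shorten life, and loss of the mir-239 region to lengthen it and to raise stress resistance.

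In the WBcel235 Ensembl annotation, which need not be the authors' build, the hairpin of mir-238 lies at III:8867328-8867425 on the minus strand. It stands 1960 bases from mir-80 (III:8865270-8865367, minus strand). mir-239a lies at X:11792445-11792542 on the plus strand, and mir-239b at X:11791302-11791399 on the minus strand, so the pair is 1045 bases apart on opposite strands. None of the 3 hairpins overlaps an annotated gene; the nearest ones to the mir-239 pair are the ncRNA C34E11.9 and the snoRNA C34E11.20. mir-239a and mir-239b are close copies, and the sources used here do not give how the authors' counting divided reads that match both, which leaves the split between them uncertain.

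Libraries held 1891780 to 5565918 miRNA reads with NEBNext, 578859 to 2585561 in the bias-minimized Adults and 155736 to 2355231 in the mir-80 series. Plant spike-in RNAs made up 13.3% to 36.1%, 38.4% to 58.8% and 37.6% to 63.3% of reads in these sets. Levels are miRNA read shares (CPM, reads scaled to a common library size) after TMM scaling, which sets the bulk of the miRNAs equal between libraries. Fold changes are log2 with their standard error. An arm is called where the Benjamini-Hochberg adjusted p of edgeR's quasi-likelihood test, over every arm tested in the fit, is below 0.05. Replicates are not said to come from separate cultures. The spread that p-values measure here is only that between these samples, and may be technical. In whole worms, fewer cells that make a miRNA and less of it per cell cannot be told apart. As a check of labels, miR-80-3p took 587 to 46356 CPM in the mir-80 mutants of that series and 62624 to 85831 CPM in its wild type. These are plain shares of miRNA reads, without TMM.

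The scale bears on every direction given here. Besides TMM, results were scaled on the spike-ins and on miR-62-3p, the product of a mirtron, a hairpin freed by splicing without Drosha (this last scale was chosen after seeing the data). Relative to TMM, the spike-ins moved the median of all arms by -0.29 at L4 and -0.15 in Adults for cdb328 against wild type with NEBNext, and by -0.51 with the bias-minimized protocol. miR-62-3p moved these medians by -1.08, -1.54 and -0.95. As a plain share of miRNA reads, without TMM, its own level at L4 was 585 to 632 CPM in cdb328 and 297 to 370 CPM in wild type. In Adults that share was 465 to 500 CPM in cdb328 and 110 to 198 CPM in wild type.

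With NEBNext the family was read almost wholly as miR-238-3p. It drew 24839 to 76897 reads per library and was 1.52% of miRNA reads in wild-type Adults, the rank 19 arm of 276. miR-239a-5p drew 53 to 172 reads and miR-239a-3p* 58 to 242. miR-238-5p* drew 13 to 43 reads. miR-239b-5p drew 4 to 43, with 10 of the 22 libraries below 10. miR-239b-3p* had 4.5 reads over all 22 libraries and none in 18 of them, too few to test, and a count of 0 allows up to 3 reads, or 0.539 to 1.59 CPM by depth. So 5 of the 6 arms were tested with NEBNext and all 6 with the bias-minimized protocol.

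miR-238-3p was the arm with the clearest order between groups. In cdb328 Adults it stood at 35932, 39555 and 38582 CPM, and in cdb328 L4 worms at 27948, 25391 and 26774 CPM. In cdb330 it stood at 20276, 20812 and 24960 CPM in Adults and at 14029, 14230 and 14414 CPM at L4. Wild-type libraries held 18128, 18911 and 17973 CPM in Adults and 15864, 15545 and 14417 CPM at L4. The order of the group means was therefore cdb328 Adult (38023 ± 1875 CPM, SD, n = 3), cdb328 L4 (26704 ± 1280), cdb330 Adult (22016 ± 2564), wild-type Adult (18338 ± 503), wild-type L4 (15275 ± 760) and cdb330 L4 (14224 ± 192). Of the neighbours that were tested, cdb330 and wild type were not called different in Adults, where their libraries did not overlap, or at L4, where they lay side by side.

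**Figure D1:**
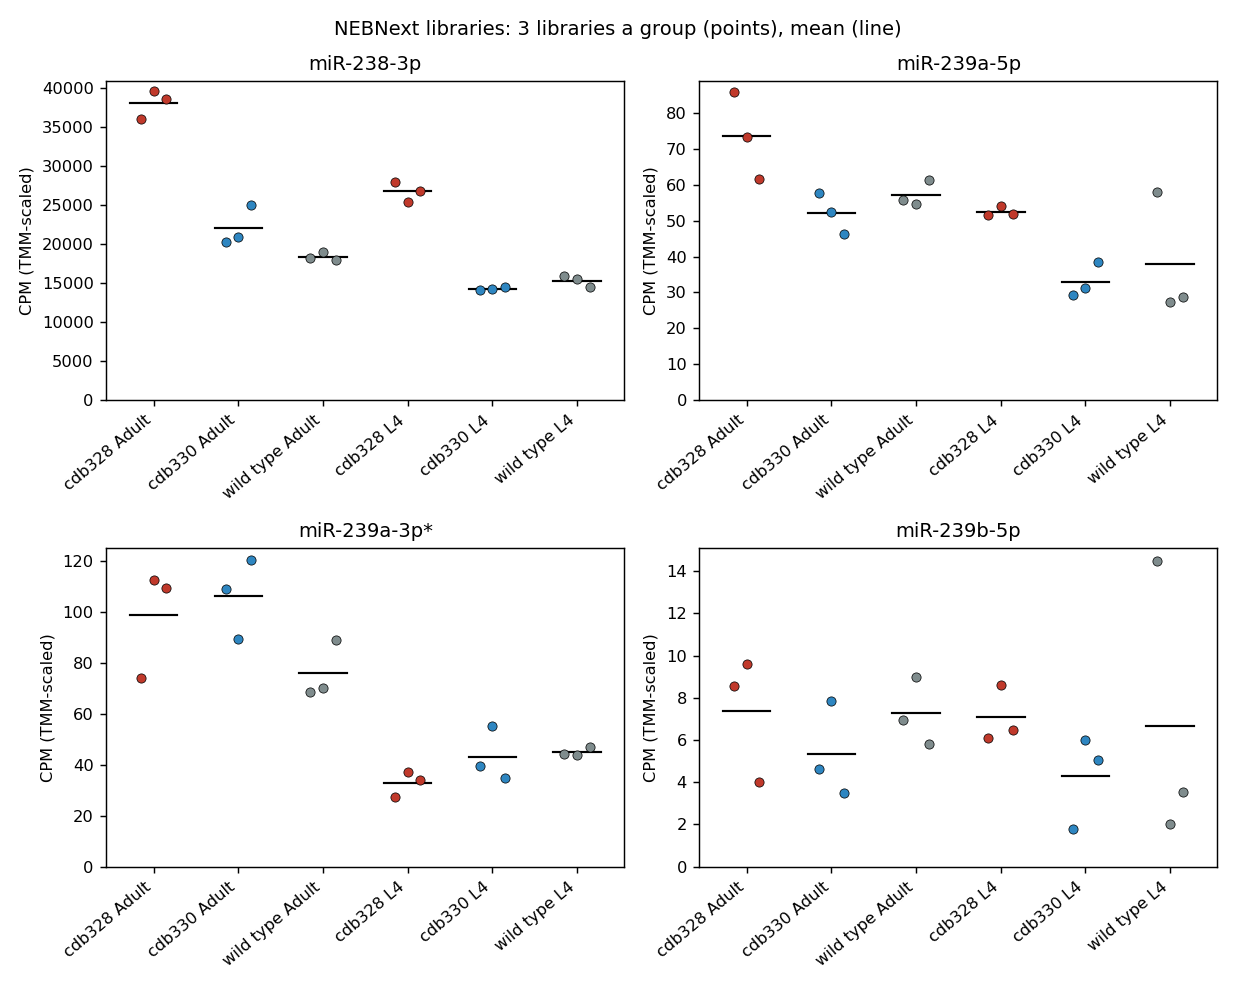
Level of 4 family arms per NEBNext library (points; CPM after TMM scaling; bars are the group mean), with cdb328, cdb330 and wild type from left to right, Adults before L4 worms. miR-238-3p separates both cdb328 groups from the others on this scale, with means of 38023 CPM in cdb328 Adults and 18338 CPM in wild-type Adults, a direction that turns round when libraries are scaled on miR-62-3p; the 3 other arms stay below 125 CPM.

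drsh-1(cdb328) against wild type asked what this allele does to each miRNA. At L4, 2 of the 5 arms tested were called, both higher in cdb328 and both from mir-238, beside 57.2% of all arms called in either direction. In Adults 1 of 5 was called, again higher, beside 49.3% of all arms. At an unadjusted p under 0.05 there were 4 arms at L4 and 2 in Adults, and DESeq2's Wald test called 3 at each stage. miR-238-3p, the kept strand, rose 1.75-fold at L4 (log2 0.81 ± 0.09, adjusted p = 8.34e-08) and 2.07-fold in Adults (1.05 ± 0.09, adjusted p = 9.90e-10), rank 9 of 215 arms by fold change. Its sign held on the spike-in scale (0.51, adjusted p = 0.0239, at L4 and 0.90 in Adults) and turned on the miR-62-3p scale (-0.27, adjusted p = 0.091, and -0.51, adjusted p = 0.00408), where the median of all arms moved by -1.08 and -1.54.

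The passenger strand miR-238-5p* had 12.7, 15.6 and 13.3 CPM in cdb328 against 7.07, 5.82 and 7.06 CPM in wild type at L4. The groups did not overlap, and it rose by a log2 of 1.07 ± 0.30 (adjusted p = 0.0044), a change of -0.01 on the miR-62-3p scale. In Adults it had 18.8, 25.9 and 10.03 CPM in cdb328 against 9.45, 14.4 and 9.54 CPM in wild type, and these overlapped (0.68 ± 0.30, adjusted p = 0.0607). That value was 0.99 (adjusted p = 0.00544) without cdb328 Adult replicate 3 and 0.92 (adjusted p = 0.0331) without wild-type Adult replicate 2. DESeq2's Wald test called it with all libraries (0.75, adjusted p = 0.0397).

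In the main fit, on the TMM scale, the mir-239 arms did not pass edgeR's test in either stage. DESeq2's Wald test called miR-239a-5p at L4 (0.49, adjusted p = 0.0413) and miR-239a-3p* in Adults (0.46, adjusted p = 0.0384). On the miR-62-3p scale miR-239a-5p was at -0.58 at L4 and at -1.18 in Adults, and miR-239a-3p* at -1.53 and -1.18. miR-239a-5p, the kept strand, had 51.6, 54.2 and 51.8 CPM in cdb328 against 57.9, 27.4 and 28.6 CPM in wild type at L4. One wild-type library, replicate 1, lay above every mutant one, and the difference was 0.47 ± 0.22 (adjusted p = 0.0671) with it and 0.75 (adjusted p = 0.00251) without it. In Adults it had 86.0, 73.4 and 61.7 CPM in cdb328 against 55.7, 54.8 and 61.5 CPM in wild type, with no overlap by a margin of under 1 CPM (0.36 ± 0.21, adjusted p = 0.167).

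Its partner strand miR-239a-3p* had 27.2, 37.0 and 33.9 CPM in cdb328 against 44.1, 43.7 and 47.1 CPM in wild type at L4, and 74.1, 112 and 109 CPM against 68.6, 70.0 and 89.0 CPM in Adults. All 3 mutant libraries lay below wild type at L4 (-0.45 ± 0.20, adjusted p = 0.0607), while the groups overlapped in Adults (0.38 ± 0.19, adjusted p = 0.0942). The L4 difference passed in 6 of 8 other settings and kept its sign in all of them, with -0.73 (adjusted p = 0.00619) on the spike-in scale, -1.53 (adjusted p = 3.56e-06) on the miR-62-3p scale and -0.63 (adjusted p = 0.023) with total counts. Leaving out 1 library moved some of these past the threshold: -0.62 (adjusted p = 0.0205) at L4 without wild-type replicate 1 and -0.59 (adjusted p = 0.0345) without wild-type replicate 2, and in Adults 0.56 (adjusted p = 0.0266) without wild-type replicate 3 and 0.55 (adjusted p = 0.0233) without cdb328 replicate 1. A fit with the replicate number as a block also moved it past the threshold at L4 (-0.46, adjusted p = 0.0458), along with miR-239a-5p at L4 (0.50, adjusted p = 0.0434) and miR-238-5p* in Adults (0.68, adjusted p = 0.0465).

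miR-239b-5p had 6.10, 8.63 and 6.47 CPM in cdb328 against 14.5, 2.04 and 3.53 CPM in wild type at L4. The wild-type values came from 43, 7 and 9 reads, and replicate 1, the library that was also high for miR-239a-5p, set the size: 0.09 ± 0.51 (adjusted p = 0.927) with it and 1.22 (adjusted p = 0.0477) without it. In Adults the values were 8.55, 9.62 and 4.01 CPM in cdb328 against 6.96, 8.98 and 5.83 CPM in wild type (-0.01 ± 0.55, adjusted p = 0.987), where so few reads leave a wide interval.

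drsh-1(cdb330) was set against the same wild-type libraries. None of the 5 arms was called at L4, where 30.7% of all arms were, nor in Adults, where 7.44% were. At an unadjusted p under 0.05 there were 0 arms at L4 and 2 in Adults, and DESeq2's Wald test called 0 at both. miR-238-3p differed by -0.10 ± 0.09 at L4 (adjusted p = 0.425) and by 0.26 ± 0.09 in Adults (adjusted p = 0.0789). All 3 cdb330 Adult libraries lay above the wild-type ones on the TMM scale (the difference was -0.21 on the miR-62-3p scale), while at L4 they lay just below. On the spike-in scale the L4 value was 0.53 in cdb330 against wild type, where the median of all arms moved by 0.64.

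miR-239a-3p* had 109, 89.5 and 120 CPM in cdb330 Adults against 68.6, 70.0 and 89.0 CPM in wild-type Adults. The groups did not overlap by a margin of under 1 CPM (0.49 ± 0.19, adjusted p = 0.113). The other 3 tested arms lay between -0.62 ± 0.52 (miR-239b-5p at L4) and 0.45 ± 0.30 (miR-238-5p* in Adults).

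The alleles were also compared with each other. At L4, 3 of 5 arms were called, all higher in cdb328, beside 62.3% of all arms, and in Adults 1 of 5 was called, beside 40.9%. miR-238-3p was higher in cdb328 than in cdb330 by 0.91 ± 0.09 at L4 (adjusted p = 9.53e-09; -0.02 on the spike-in scale and -0.26 on that of miR-62-3p) and by 0.79 ± 0.09 in Adults (adjusted p = 1.41e-07; -0.30 on the miR-62-3p scale). miR-238-5p* was higher by 1.12 ± 0.30 at L4 (adjusted p = 0.00222) and miR-239a-5p by 0.67 ± 0.22 (adjusted p = 0.00945), though both were at -0.02 and -0.50 on the miR-62-3p scale and miR-239a-5p at -0.25 on the spike-in scale. At L4 the spike-ins moved the median of all arms in this comparison by -0.93. In Adults miR-239a-5p differed by 0.50 ± 0.22 (adjusted p = 0.0691). It passed there with DESeq2's size factors (0.58, adjusted p = 0.0256) and with total counts (0.59, adjusted p = 0.0406). It also passed with only the groups compared (0.53, adjusted p = 0.0151) and with DESeq2's Wald test (0.59, adjusted p = 0.0175). On the miR-62-3p scale it was at -0.59 (adjusted p = 0.0438). Its L4 call was lost with total counts (0.39, adjusted p = 0.147). miR-239a-3p* went the other way at L4, with 32.7 ± 4.98 CPM in cdb328 and 43.1 ± 10.6 CPM in cdb330 (SD, n = 3 each; -0.39 ± 0.20, adjusted p = 0.0893). That difference passed in 5 of 8 other settings, among them the spike-in scale (-1.32, adjusted p = 7.20e-08), the miR-62-3p scale (-1.53, adjusted p = 3.10e-06) and total counts (-0.69, adjusted p = 0.0106), and without cdb330 L4 replicate 3 (-0.53, adjusted p = 0.0357).

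Every arm called between Adults and L4 worms was higher in Adults on the TMM scale, while those called in wild type or cdb330 turned lower in Adults when scaled on the spike-ins. In wild type 4 of 5 arms were called, all higher in Adults, beside 67.0% of all arms; in cdb328 2 of 5, beside 47.4%; and in cdb330 4 of 5, beside 70.2%. These shares are not far from the background, and miR-239b-5p was called in no genotype (0.03 to 0.30). miR-238-3p was higher in Adults than at L4 by 0.26 ± 0.09 in wild type (adjusted p = 0.0146), 0.51 ± 0.09 in cdb328 (adjusted p = 7.69e-05) and 0.63 ± 0.09 in cdb330 (adjusted p = 2.42e-06), and lower by -0.51, -0.12 and -0.73 on the spike-in scale. The spike-ins moved the median of all arms by -0.77, -0.63 and -1.35 here, so relative to it miR-238-3p stayed above the median arm. With total counts the wild-type value of miR-238-3p was -0.27 and that of cdb330 -0.0024, where the median of all arms moved by -0.53 and -0.63. In wild type the call of miR-238-3p was lost without any 1 of the 3 L4 libraries or without Adult replicate 3 (0.20 to 0.24, adjusted p = 0.0695 to 0.181).

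miR-239a-3p* showed the widest stage difference of the family, and it was in cdb328. Its 74.1, 112 and 109 CPM in cdb328 Adults stood against 27.2, 37.0 and 33.9 CPM in cdb328 L4 worms, without overlap. This was a 3.00-fold rise (1.59 ± 0.20, adjusted p = 8.61e-07), next to 1.30 ± 0.19 in cdb330 (adjusted p = 2.03e-06) and 0.75 ± 0.19 in wild type (adjusted p = 0.0017). On the spike-in scale the cdb328 rise kept its sign and its call, while the cdb330 value was -0.06 and the wild-type value -0.03.

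miR-239a-5p was higher in Adults by 0.59 ± 0.22 in wild type (adjusted p = 0.0198) and 0.66 ± 0.22 in cdb330 (adjusted p = 0.0102), which became -0.17 and -0.70 on the spike-in scale, and by 0.48 ± 0.21 in cdb328 (adjusted p = 0.0644). The cdb328 value passed with DESeq2's size factors (0.62, adjusted p = 0.0154) and without a filter (0.56, adjusted p = 0.0246). It also passed with only the groups compared (0.68, adjusted p = 0.0032) and with DESeq2's Wald test (0.63, adjusted p = 0.00918). The wild-type call of miR-239a-5p was lost without L4 replicate 2 (0.34), L4 replicate 3 (0.44) or Adult replicate 3 (0.50). miR-238-5p* was called in wild type (0.76 ± 0.32, adjusted p = 0.0393) and in cdb330 (1.26 ± 0.30, adjusted p = 0.000747), at -0.01 and -0.08 on the spike-in scale. The wild-type call of miR-238-5p* was lost without any 1 of the L4 libraries (0.62 to 0.80) or without Adult replicate 2 (0.52). miR-239b-5p, which was not called in wild type (0.14, adjusted p = 0.811), had a difference of 1.33 (adjusted p = 0.0232) without wild-type L4 replicate 1.

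Whether the stage difference itself differed between genotypes was tested in the same fit. For cdb328 against wild type 0 of 5 arms passed, beside 3.26% of all arms, with 1 arm at an unadjusted p under 0.05 and 1 called by DESeq2. That arm was miR-239a-3p* (0.83 ± 0.28, edgeR adjusted p = 0.0801; 0.89 and adjusted p = 0.0464 with DESeq2). It passed without wild-type L4 replicate 1 (1.10, adjusted p = 0.0373) or wild-type Adult replicate 3 (1.17, adjusted p = 0.022). For cdb330 against wild type 0 of 5 passed, beside 16.3% of all arms, with 1 at an unadjusted p under 0.05 and 0 called by DESeq2. The nearest was miR-238-3p (0.37 ± 0.13, adjusted p = 0.0548; 0.42, adjusted p = 0.0296, without cdb330 Adult replicate 1).

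In the tagged strain all 5 arms tested were called lower than in wild-type Adults on the TMM scale, beside 32.1% of all arms called in either direction, but 4 of the 5 were higher on the spike-in scale. miR-238-3p stood at 10256 and 10329 CPM in the tagged strain against 17544, 18516 and 17597 CPM in wild type (these levels are from the fit of all 22 NEBNext libraries). miR-239a-5p stood at 26.2 and 28.5 CPM against 53.9, 53.6 and 60.2 CPM, and miR-239a-3p* at 27.1 and 31.3 CPM against 66.4, 68.6 and 87.2 CPM. No tagged library reached the wild-type range in any of the 5 arms, and how many of all arms separated this way was not counted.

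The falls were -0.80 ± 0.11 for miR-238-3p (adjusted p = 7.12e-06), -1.03 ± 0.23 for miR-239a-5p (adjusted p = 0.00114) and -1.34 ± 0.21 for miR-239a-3p* (adjusted p = 4.62e-05). On the spike-in scale these arms were instead higher, by 1.25, 1.03 and 0.72, as the median of all arms moved by 2.05: the tagged libraries held 6.34 miRNA reads per spike-in read and the wild-type Adults 2.22. On the miR-62-3p scale, which moved the median by 1.08, they were at 0.27, 0.045 and -0.26. miR-238-5p* fell by 0.89 ± 0.32 (adjusted p = 0.0323; 1.15 on the spike-in scale and 0.22 on that of miR-62-3p), a call lost without wild-type replicate 2 (-0.57) or without either tagged library (-0.88 and -0.90). miR-239b-5p fell by 2.94 ± 0.73 (adjusted p = 0.00234), with 4 and 4.5 reads in the tagged libraries against 14, 20 and 11 reads in wild type. It was at -0.95 on the spike-in scale (adjusted p = 0.154), and so few reads leave all its values imprecise.

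With drsh-1(null) over the tagged alleles all 5 arms had positive differences from the tagged strain on the TMM scale. Their median was 0.34, and that of all arms was 0.08. Here 1 of 5 arms was called, beside 4.19% of all arms: miR-239a-3p*, with 55.3 and 48.9 CPM in the tagged null strain against 27.1 and 31.3 CPM in the tagged strain (0.83 ± 0.24, adjusted p = 0.0495). The groups did not overlap, but the call was lost without any 1 of the 4 libraries (0.61 to 0.94). It held in 2 of 8 other settings, and was at 0.12 (adjusted p = 0.726) on the spike-in scale and 0.56 (adjusted p = 0.297) on the miR-62-3p scale. miR-238-3p, at 14021 and 12079 CPM in the tagged null strain against 10256 and 10329 CPM in the tagged strain, differed by 0.34 ± 0.12 (adjusted p = 0.0954). miR-239b-5p averaged 2.22 CPM in the tagged null strain and 0.890 CPM in the tagged strain, from 4 to 6 reads a library (1.28 ± 1.00, adjusted p = 0.562).

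The bias-minimized Adults gave the mir-239 hairpins far more reads, and there the family could be read as a whole. In cdb328 Adults 4 of 6 arms were called higher than in wild type, beside 49.2% of all arms. miR-238-3p had 17274, 18796 and 19678 CPM in cdb328 against 11544, 10776 and 12484 CPM in wild type. miR-239a-5p had 21548, 20296 and 20865 CPM against 14702, 14563 and 13804 CPM. miR-239b-5p had 1775, 1399 and 1459 CPM against 1043, 927 and 1038 CPM. In all 3 kept strands every cdb328 library lay above every wild-type one, and how many of all arms separated this way was not counted.

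These differences were 0.68 ± 0.08 for miR-238-3p (adjusted p = 0.000524), 0.54 ± 0.07 for miR-239a-5p (adjusted p = 0.000682) and 0.62 ± 0.14 for miR-239b-5p (adjusted p = 0.00765). They shrank to 0.16, 0.03 and 0.12 on the spike-in scale, none of them called, and turned to -0.27, -0.40 and -0.32 on the miR-62-3p scale. The member furthest from its control was a passenger strand, miR-239b-3p*, with 166, 183 and 260 CPM in cdb328 against 90.9, 79.0 and 71.8 CPM in wild type. It rose by 1.33 ± 0.21 (adjusted p = 0.00172), rank 3 of 191 arms by fold change, and was at 0.38 (adjusted p = 0.113) on the miR-62-3p scale.

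The ranges of the remaining passenger strands overlapped between groups. miR-238-5p* had 436, 365 and 447 CPM in cdb328 against 294, 389 and 418 CPM in wild type (0.18, adjusted p = 0.641). miR-239a-3p* had 83.7, 193 and 116 CPM against 73.0, 155 and 88.4 CPM (0.31, adjusted p = 0.639), with replicate 2 the highest of its group in both genotypes. Replicate by replicate, miR-239a-3p* was higher than wild type in all 3 pairs, in cdb328 and also in cdb330 (108, 211 and 147 CPM), and the fit with the replicate number as a block did not call it in either.

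**Figure D2:**
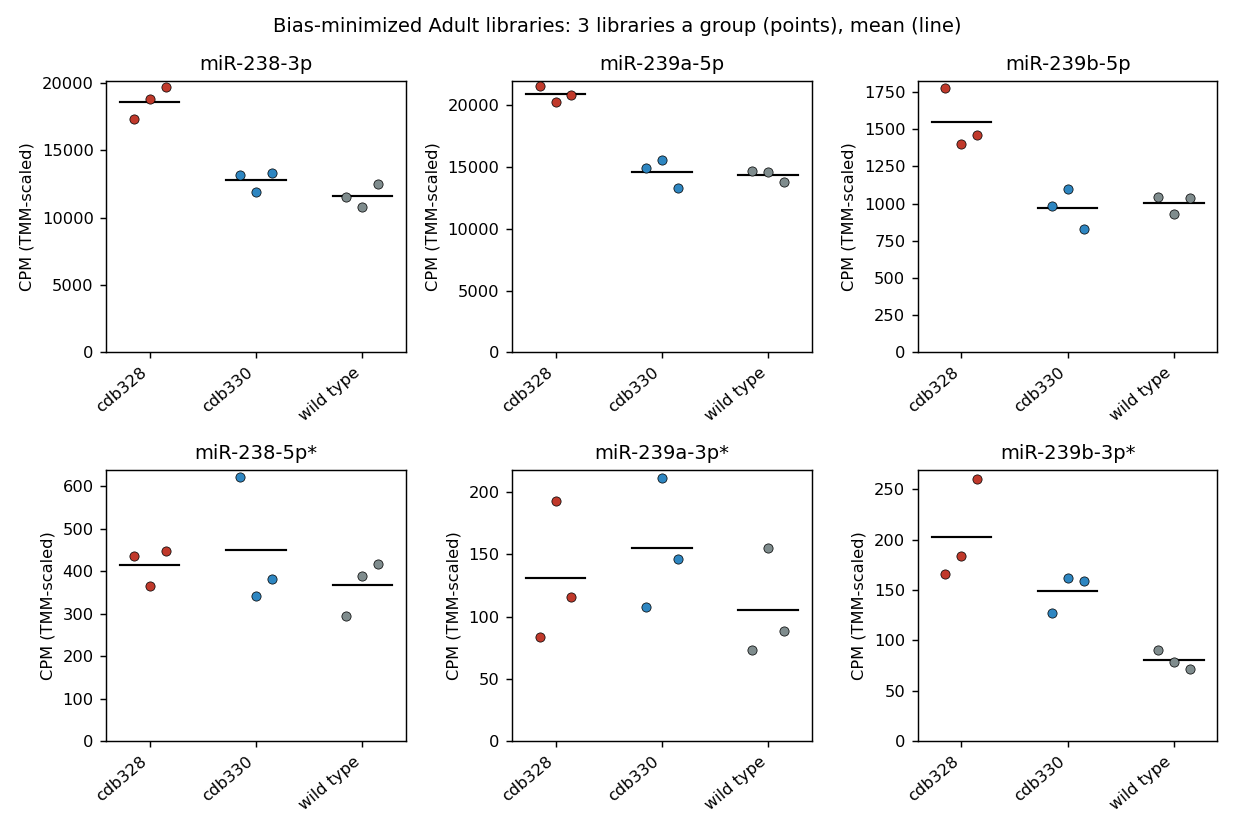
Level of the 6 arms per bias-minimized Adult library (points; CPM after TMM scaling; bars are the group mean), with cdb328, cdb330 and wild type from left to right. On this scale cdb328 lies above wild type without overlap in miR-238-3p, miR-239a-5p, miR-239b-5p and miR-239b-3p*. The first 3 of these lie below wild type when libraries are scaled on miR-62-3p. In cdb330 only miR-239b-3p* separates from wild type, and it was not called. How many of all arms separate this way was not counted.

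In cdb330 Adults 0 of 6 arms were called, beside 0.524% of all arms, with 1 at an unadjusted p under 0.05 and 1 called by DESeq2. That arm was miR-239b-3p*, with 128, 162 and 159 CPM in cdb330 against 90.9, 79.0 and 71.8 CPM in wild type. No library overlapped, the difference was 0.89 ± 0.20 (edgeR adjusted p = 0.0716; 0.92 and adjusted p = 0.00044 with DESeq2), and it was rank 1 of 191 arms by fold change. miR-238-3p had 13163, 11924 and 13302 CPM in cdb330 (0.14 ± 0.08, adjusted p = 0.397), overlapping wild type. miR-239a-5p (14893, 15607 and 13317 CPM; 0.02) and miR-239b-5p (985, 1095 and 831 CPM; -0.05) lay among the wild-type values.

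The protocols disagreed on how much mir-239 RNA the same genotypes held, and this is given as a description (by their names the libraries of both may come from the same samples). In shares of miRNA reads, miR-239a-5p stood at 14700 ± 836 CPM in bias-minimized and 47.7 ± 6.39 CPM in NEBNext libraries of wild-type Adults (SD, n = 3 each), a 308-fold ratio and the highest of 213 arms. The ratio was 298-fold in cdb328 and 352-fold in cdb330, rank 2 in both. For miR-239b-5p the ratio was 171-fold in wild type (1029 ± 116 against 6.03 ± 1.45 CPM), 221-fold in cdb328 and 230-fold in cdb330. miR-238-3p went the other way, with ratios of 0.781, 0.515 and 0.730 in wild type, cdb328 and cdb330.

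Over all 213 arms in wild type the median log2 ratio was 0.28, with the 5th and 95th percentiles at -2.10 and 6.46. miR-238-5p* stood 40.4-fold higher in bias-minimized wild-type libraries, and miR-239a-3p* 1.68-fold. miR-239b-3p* had 82.6 ± 12.3 CPM in the bias-minimized libraries and 0 reads in all 9 NEBNext Adult libraries of these genotypes. So the ranking within the family turned with the protocol: miR-239a-5p was 1.47% and miR-238-3p 1.19% of reads in bias-minimized wild-type Adults, against 0.00477% and 1.52% with NEBNext. Adaptor ligation prefers some RNA ends over others, and its part in these ratios was not tested.

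**Figure D3:**
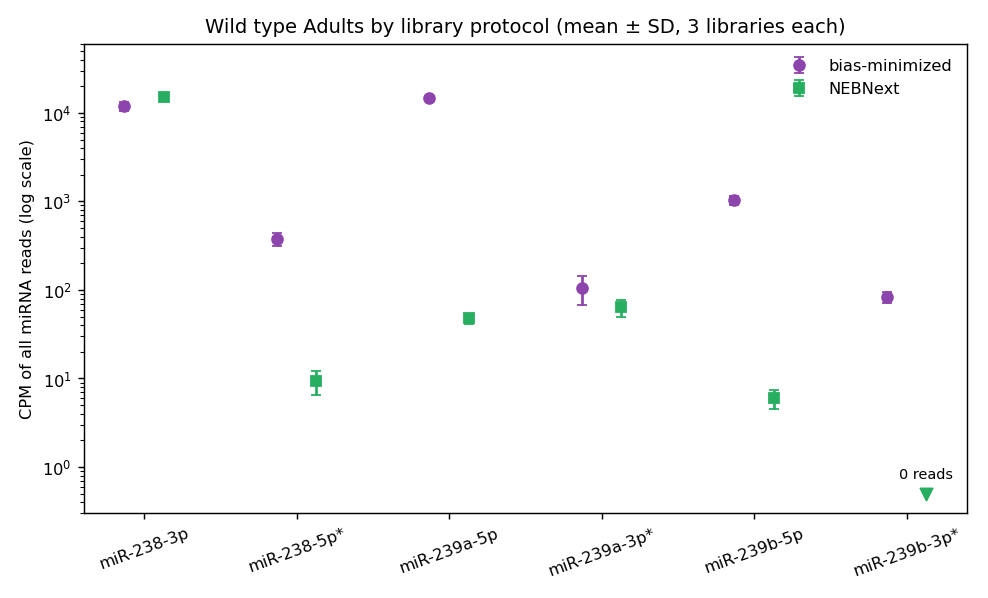
Share of miRNA reads (CPM, log axis; mean and SD over 3 libraries) of each arm in wild-type Adults, bias-minimized on the left and NEBNext on the right of each pair. miR-239a-5p stood at 14700 CPM bias-minimized and 47.7 CPM with NEBNext, miR-238-3p at 11901 and 15243 CPM, and the triangle marks miR-239b-3p* with 0 reads in NEBNext libraries.

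In the mir-80 series a drsh-1 mutant was set against its own control, once with mir-80 intact and once per mir-80 allele. On wild-type mir-80, 0 of 6 arms were called, beside 20.8% of all arms, with 1 at an unadjusted p under 0.05 and 1 called by DESeq2. miR-238-3p had 14859, 16090 and 14889 CPM in drsh-1(cdb263 cdb328) against 10464, 12109 and 14656 CPM in wild type. The groups did not overlap (0.30 ± 0.15, adjusted p = 0.161), and without wild-type replicate 3, the highest of its group, the difference was 0.57 (adjusted p = 0.0403).

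Both kept strands of mir-239 lay higher in the mutant, without overlap and without a call. The share of all arms that separate so was not counted. miR-239b-5p had 1903, 2118 and 2577 CPM in drsh-1(cdb263 cdb328) against 1050, 933 and 806 CPM in wild type (1.24 ± 0.48, adjusted p = 0.0655; 1.28 and adjusted p = 0.0247 with DESeq2). miR-239a-5p had 18924, 16393 and 22523 CPM against 12410, 12561 and 6244 CPM (0.89 ± 0.47, adjusted p = 0.188). The passenger miR-239b-3p* had 148, 170 and 143 CPM against 62.8, 92.3 and 89.9 CPM (0.92 ± 0.45, adjusted p = 0.148).

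On mir-80 mutant backgrounds the called arm, where there was one, was miR-238-3p. On cdb530, 1 of 6 arms was called, beside 30.0% of all arms: miR-238-3p had 21741 and 21696 CPM with drsh-1(cdb328) against 9654, 16099 and 14269 CPM with drsh-1 intact (0.70 ± 0.17, adjusted p = 0.00311). The call was lost without drsh-1(cdb328);mir-80(cdb530) replicate 1 (0.57, adjusted p = 0.0791). It was also lost on the spike-in scale (0.07, adjusted p = 0.912), on the miR-62-3p scale (0.17, adjusted p = 0.874), with total counts (0.61, adjusted p = 0.0753) and in a fit of these groups alone (0.59, adjusted p = 0.127). On cdb496, 1 of 6 was called, beside 19.3%: it had 16928, 20339 and 22904 CPM with drsh-1(cdb263 cdb328) against 13062, 15695 and 15620 CPM (0.44 ± 0.15, adjusted p = 0.0426; -0.39 on the miR-62-3p scale and 0.11, adjusted p = 0.879, on the spike-in scale). Leaving out any 1 of the 6 libraries other than mir-80(cdb496) replicate 2 ended that call (0.36 to 0.57).

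On cdb493 0 of 6 arms were called, beside 18.4% of all arms, with 2 at an unadjusted p under 0.05 and 0 called by DESeq2. miR-238-3p had 19056 and 18914 CPM with drsh-1(cdb263 cdb328) against 14972, 12863 and 13546 CPM (0.46 ± 0.17, adjusted p = 0.055), and passed with the replicate number as a block (0.50, adjusted p = 0.02). On cdb494 (19.8% of all arms called) and on cdb495 (24.2%) 0 of 6 were called, with 1 at an unadjusted p under 0.05 and 1 called by DESeq2 in each. miR-238-3p had 19714, 20829 and 21419 CPM against 16546 and 18517 CPM on cdb494 (0.24 ± 0.17, adjusted p = 0.388), and 20577, 21327 and 22498 CPM against 15942 and 16660 CPM on cdb495 (0.40 ± 0.17, adjusted p = 0.0831).

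miR-239b-3p* on cdb494 had 107, 180 and 143 CPM with drsh-1(cdb263 cdb328) against 88.7 and 17.7 CPM with drsh-1 intact (1.31 ± 0.53, adjusted p = 0.097). Without mir-80(cdb494) replicate 1 it was at 3.00. That leaves 1 control library, the shallowest of the series, with 3 reads of this arm, so the size is not readable. Without the first drsh-1 mutant library it was at 1.61 (adjusted p = 0.0435). On cdb530 the same arm had 31.2 and 167 CPM with drsh-1(cdb328) against 66.4, 29.8 and 33.1 CPM (1.28 ± 0.52, adjusted p = 0.0681). The mutant libraries stood at the low and the high end there. The value was -0.35 without the second of them and 1.87 without the first, each time with 1 mutant library left. miR-239b-5p on cdb530 (0.57 ± 0.52) was at 1.60 (adjusted p = 0.00959) without mir-80(cdb530) replicate 1, as was miR-239b-3p* there (adjusted p = 0.0299).

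Whether the drsh-1 effect differed between a mir-80 allele and wild-type mir-80 was tested for all 5 alleles. In each, 0 of 6 arms were called, with 0 at an unadjusted p under 0.05 and 0 called by DESeq2. Over all arms 0.483% were called for cdb493, 0% for cdb494, 0.966% for cdb495, 0.966% for cdb496 and 2.42% for cdb530.

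Across all 9 comparisons of a mutant whose drsh-1 name holds cdb328 with its own control, miR-238-3p was the steadiest of the 6 arms on the TMM scale. It was higher in all 9, without overlap in all 9 and called in 5, with differences of 0.24 to 1.05 (median 0.46). On the spike-in scale it stayed above 0 in all 9 (0.07 to 0.90), and on the miR-62-3p scale it was below 0 in 8 of 9. miR-239a-5p was higher in all 9 on the TMM scale, in 8 on the spike-in scale and in 2 on the miR-62-3p scale. It was called in 1 and without overlap in 5 (0.16 to 0.89, median 0.64). How many of all arms reach such counts was not worked out, for these arms or for those below. In the single comparisons 18.4% to 57.2% of all arms were called.

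miR-239b-5p was higher in 7 of 9 (6 on the spike-in scale and 3 on that of miR-62-3p), called in 1 and without overlap in 3 (-0.13 to 1.24, median 0.61). miR-239b-3p*, tested in the 7 bias-minimized comparisons, was higher in all 7 (also on the spike-in scale, and in 4 on that of miR-62-3p), called in 1 and without overlap in 6 (0.37 to 1.33, median 0.92). Of the passengers of the other hairpins, miR-239a-3p* did not keep a side, being higher in 4 of 9 (median -0.15). miR-238-5p* was higher in 5 of 9, but that count cannot tell whether it kept a side. It includes the mir-80 series, where some libraries held at most 7 reads of this arm and its differences were not readable. Outside that series miR-238-5p* was higher by 1.07 at L4 and 0.68 in Adults with NEBNext, and by 0.18 in bias-minimized Adults. Only the L4 value was called, and all of these turned negative on the miR-62-3p scale. The 9 comparisons all concern mutants that carry cdb328, so they are not 9 independent alleles. The bias-minimized Adult libraries also carry the names of the NEBNext Adult ones with a suffix, so both Adult comparisons may rest on the same samples, controls included.

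**Figure D4:**
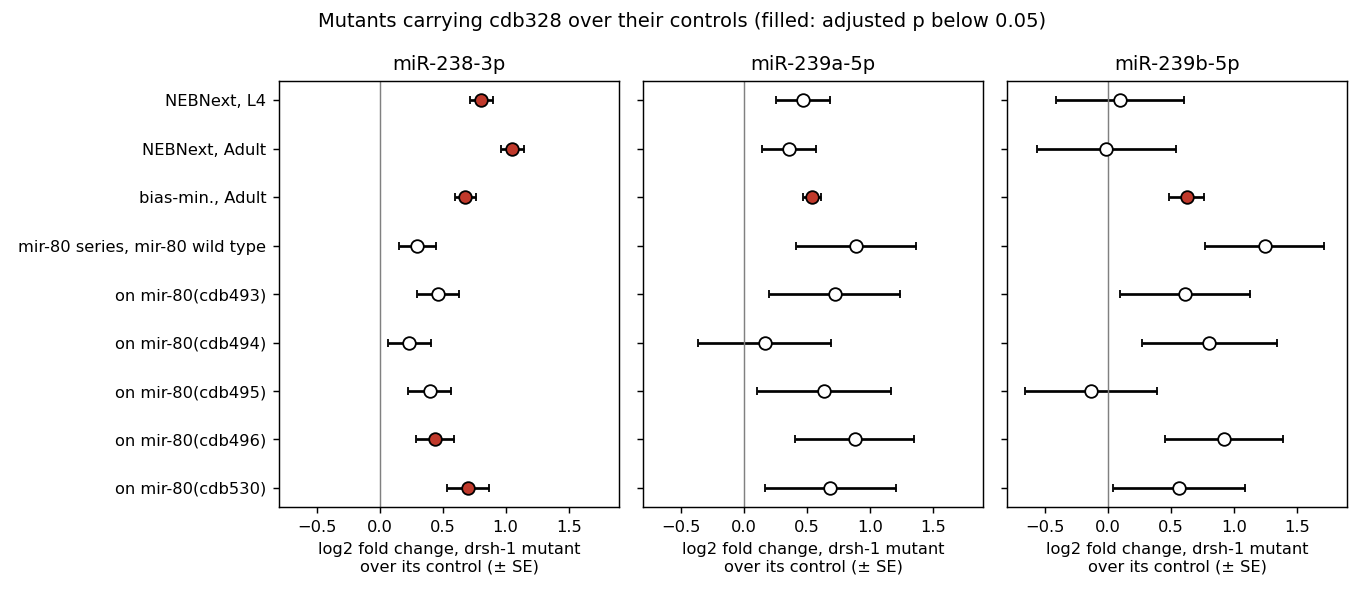
Log2 fold change with its standard error of miR-238-3p, miR-239a-5p and miR-239b-5p in 9 comparisons of a drsh-1 mutant carrying cdb328 with its control, on the TMM scale (both Adult comparisons may share samples); filled points have an adjusted p below 0.05. miR-238-3p lies above 0 in all 9 and is called in 5, but is below 0 in 8 of 9 when libraries are scaled on miR-62-3p.

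The mir-80 alleles themselves were set against the wild type of that series, whose 3 libraries these comparisons share. In cdb493 and in cdb496 0 of 6 arms were called (0.966% of all arms in each), with 0 at an unadjusted p under 0.05 and 0 called by DESeq2. In cdb494 (0.966%) and cdb495 (5.80%) 0 of 6 were called, with 1 and 2 at an unadjusted p under 0.05 and 0 called by DESeq2. In cdb495 miR-239b-5p had 2715 and 2050 CPM against 1050, 933 and 806 CPM in wild type (1.36 ± 0.52, adjusted p = 0.164). miR-238-3p, the neighbour of mir-80 on chromosome III, differed from wild type by 0.10 ± 0.15 in cdb530 and 0.50 ± 0.17 in cdb494 (adjusted p = 0.155), the lowest and the highest of the 5. Without mir-80(cdb494) replicate 1, which leaves 1 library of that allele, the cdb494 value was 0.75.

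In cdb530 1 of 6 arms was called, beside 12.6% of all arms. miR-239b-5p had 568, 160 and 93.7 CPM in mir-80(cdb530) against 1050, 933 and 806 CPM in wild type. It fell by 1.78 ± 0.49 on the log2 scale (adjusted p = 0.0154), every cdb530 library lying below wild type. Without cdb530 replicate 1 the value was -2.83 and without replicate 2 it was -1.51 (adjusted p = 0.0718). In a fit of these groups alone it was -1.70 (adjusted p = 0.242), and on the miR-62-3p scale -0.92 (adjusted p = 0.0839). miR-239a-5p had 8151, 3551 and 4671 CPM against 12410, 12561 and 6244 CPM (-0.93 ± 0.47, adjusted p = 0.179), with the groups overlapping. By their names the cdb530 libraries are numbered apart from these wild-type ones, so allele and library set cannot be told apart. miR-44-3p, which also varies widely inside other groups, had 4164, 4633 and 5301 CPM of miRNA reads in cdb530. In wild type it had 95.1, 130 and 118 CPM.

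miR-238-5p* was lost from some libraries of the mir-80 series. It had at most 7 reads in 9 of the 32, in 6 groups that also held libraries with 73 reads or more. In drsh-1(cdb263 cdb328) its level was 1.74, 1.48 and 250 CPM, and in wild type 447, 5.13 and 0 CPM. In the other bias-minimized libraries it was 206 to 1483 CPM of miRNA reads. miR-238-3p, from the same hairpin, had 13124 to 25126 CPM of miRNA reads in the 9 libraries and 7575 to 24982 CPM in the rest of the series, so it was not lost with it. miR-238-5p* is 1 of 20 arms with values over 15-fold apart inside 2 or more groups, and its differences in this series (SE of about 2 on the log2 scale) were not readable.

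**Figure D5:**
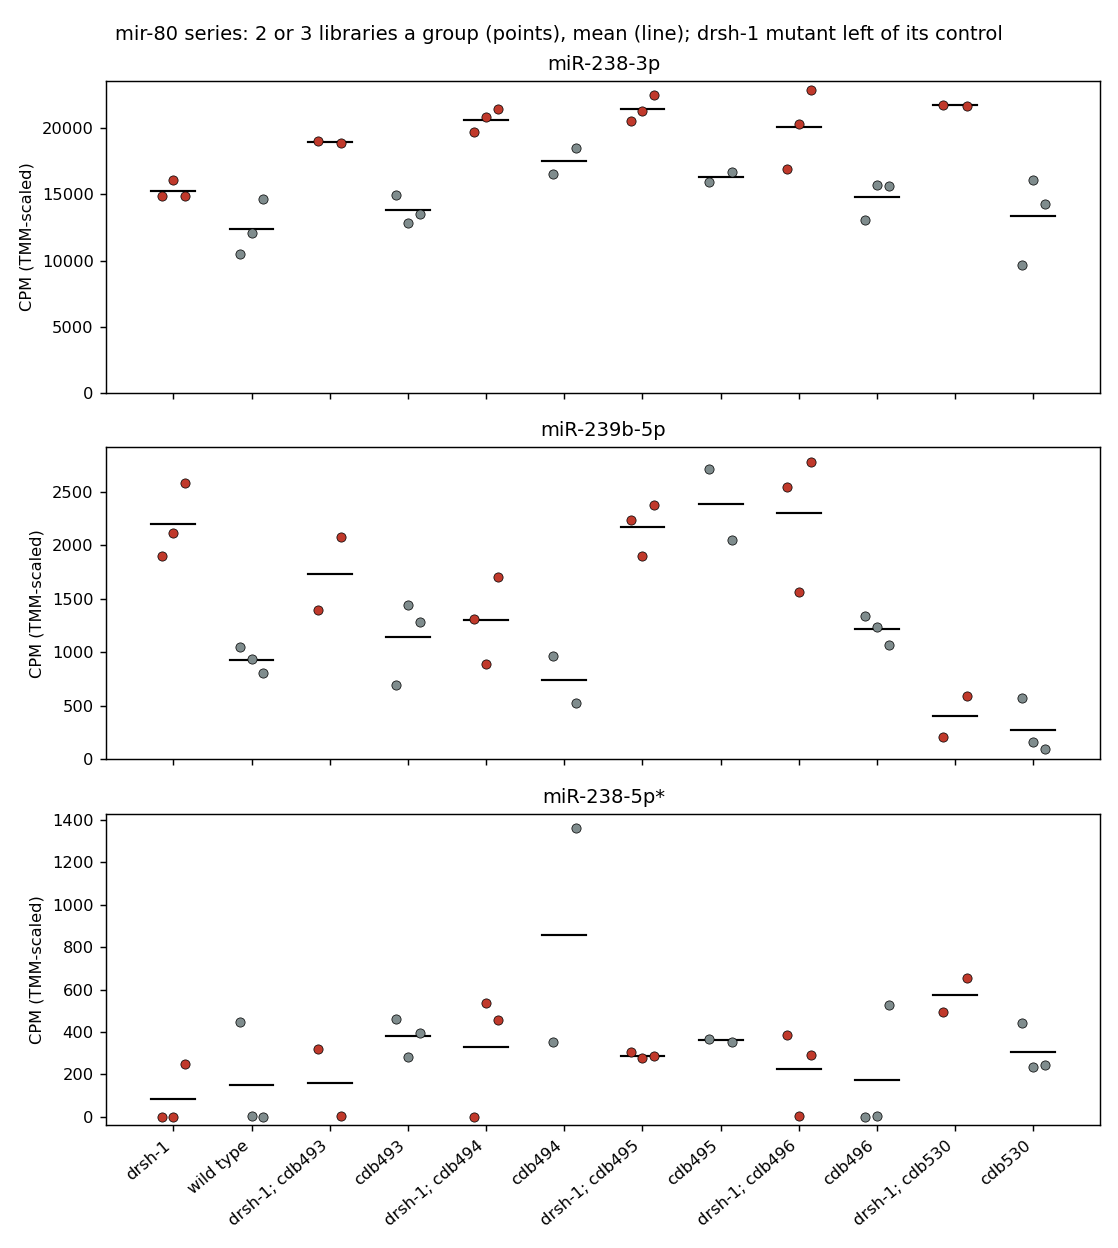
Level of miR-238-3p, miR-239b-5p and miR-238-5p* per library of the mir-80 series (points; CPM after TMM scaling, linear axis; 12 groups), each drsh-1 mutant to the left of its control. miR-238-3p lies higher in every mutant group on this scale (called on cdb496 and cdb530; below its control in 5 of 6 comparisons when scaled on miR-62-3p), miR-239b-5p is lowest in mir-80(cdb530), and miR-238-5p* drops to a few reads in 9 libraries.

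Ratios of arms within a library do not depend on the scale. The log2 ratio of 5p to 3p reads of mir-239a was 0.70 ± 0.20 in cdb328 and -0.33 ± 0.63 in wild type at L4 (SD, n = 3 each). The difference was 1.03, without overlap, at an exact two-sided permutation p of 0.1, the smallest that 3 against 3 libraries can give. In Adults it was -0.41 ± 0.55 in cdb328 and -0.40 ± 0.12 in wild type, and -1.03 ± 0.32 in cdb330, whose libraries did not overlap those of wild type (-0.63, exact permutation p = 0.1). In the mir-80 series the same ratio was higher in the drsh-1 mutant in all 6 comparisons (0.17 to 1.60). In the bias-minimized Adults it differed from wild type by 0.24 in cdb328 and by -0.55 in cdb330, with overlap in both.

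For mir-239b in the bias-minimized Adults the log2 ratio was 2.95 ± 0.47 in cdb328, 2.70 ± 0.29 in cdb330 and 3.64 ± 0.18 in wild type. Both mutants lay below wild type without overlap (-0.70 and -0.95, exact two-sided permutation p = 0.1 each). The drsh-1 mutants of the mir-80 series did not keep that side. Their mir-239b ratio differed by 0.31 on wild-type mir-80, 0.25 on cdb493, 0.16 on cdb496 and -0.06 on cdb530, all with overlap. On cdb495 the difference was -0.49, without overlap. For mir-238 in the bias-minimized Adults it was -5.49 ± 0.19 in cdb328 and -5.00 ± 0.27 in wild type (-0.49, exact permutation p = 0.1). With NEBNext the mir-238 ratio in cdb328 differed from wild type by -0.41 in Adults and by 0.25 at L4, both with overlap. With mutant drsh-1 it differed by -0.71 on cdb495, without overlap, and by 0.21 on cdb530, with overlap. In mir-80(cdb530) against wild type of its series the ratio fell to 5.98 ± 0.22 against 7.15 ± 0.96 for mir-239a and to 2.34 ± 0.80 against 3.52 ± 0.48 for mir-239b. There miR-239a-5p over miR-239b-5p was 4.65 ± 0.91 in cdb530 and 3.42 ± 0.42 in wild type (1.23, exact permutation p = 0.1). Allele and library set cannot be told apart in these cdb530 ratios, as the libraries are numbered apart from the wild-type ones. Over the 63 ratio tests the lowest adjusted p was 0.45. The exact p cannot go below 0.1 with these group sizes and adjustment cannot lower it. No shift could therefore have passed, and the correction says nothing about these ratios.

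The arms most like each kept strand were ranked by Pearson's r of log2(CPM + 1) over the 18 NEBNext libraries of cdb328, cdb330 and wild type, among 166 arms. These libraries share genotype and stage groups, so r mixes differences between group means with the spread inside groups. For miR-238-3p they were miR-1820-5p (r = 0.928), miR-64-5p (0.902) and miR-80-3p (0.900), and after removing group means r was 0.172, 0.278 and 0.560. For miR-239a-5p they were miR-66-5p (0.667), miR-229-5p (0.634) and miR-1822-3p (0.631), and 0.362, 0.567 and 0.248 after removing group means. For miR-239b-5p they were miR-229-5p (0.427), miR-79-3p (0.396) and miR-254-3p (0.336). Without group means these became 0.542, 0.625 and 0.300, so miR-229-5p and miR-79-3p rose. Within the family r was 0.717 for miR-239a-5p with miR-239b-5p, 0.613 for miR-238-3p with miR-239a-5p and 0.001 for miR-238-3p with miR-239a-3p*.

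Other miRNAs studied in worm ageing and stress were read beside the family: lin-4 and mir-34, which act in larval timing and the response to DNA damage and also in lifespan, mir-71 and mir-246, which promote long life, and mir-228. In cdb328 2 of their 9 tested arms were called higher and 3 lower than wild type at L4, and likewise in NEBNext and in bias-minimized Adults, beside 57.2%, 49.3% and 49.2% of all arms called, so these counts are near the background. Their median difference was -0.25, 0.01 and -0.15, beside 0.47, 0.38 and 0.58 for the mir-238 and mir-239 arms and 0.04, -0.03 and -0.06 for all arms. miR-246-3p was higher by 0.38 ± 0.13 at L4 (adjusted p = 0.0144) and 0.47 ± 0.13 in Adults (adjusted p = 0.00333) with NEBNext, and miR-228-5p by 0.34 (adjusted p = 0.00734) and 0.30 (adjusted p = 0.0204). All of these are smaller than the moves of the median arm by -1.08 and -1.54 on the miR-62-3p scale.

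miR-71-5p stood far below, at 3501 CPM in cdb328 against 83256 CPM in wild type at L4 (-4.57 ± 0.15, adjusted p = 3.48e-18). lin-4-5p was within 0.19 of wild type at L4 and 0.03 in Adults (adjusted p = 0.119 and 0.854). In cdb330 none of the 9 arms was called higher, and 3 at L4, 1 in NEBNext Adults and 0 in bias-minimized Adults were called lower, beside 30.7%, 7.44% and 0.524% of all arms. In wild type, Adults against L4 worms had 3 of the 9 called higher (miR-34-5p* by 0.93 and miR-71-5p by 0.92 among them) and 5 lower (lin-4-5p by -0.78), beside 67.0% of all arms called, 62 higher and 82 lower. Of the 5 tested mir-238 and mir-239 arms, 4 were called higher there.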

How the data were processed

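The tables, one per protocol, each hold 276 arms and plant spike-ins. The NEBNext table holds raw reads, per the file headers; the deposited bias-minimized values, which say nothing of it, were read the same way. Per the submitters' processing notes HTSeq was run; the sources used here do not give its version, an aligner or a genome build. Of the deposited values, 292 and 166 were not whole, each of them midway between neighbouring integers. They are thus estimated counts (expected counts) as deposited, and were rounded to whole numbers. Among the family arms 2 values per protocol were not whole, and each time they were the 5p and 3p arms of 1 hairpin. In bias-minimized cdb330 Adult replicate 3 they were miR-239a-5p (13806.5) and miR-239a-3p* (151.5). In NEBNext tagged replicate 2 they were miR-239b-5p (4.5) and miR-239b-3p* (0.5). How reads that match both mir-239a and mir-239b were divided is not given, so single members of that pair stay uncertain.

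Groups came from the labels. Chi-square per degree of freedom was at least 17.5 in all 57 pairs of libraries of 1 group, and each library counts once. edgeR 4.0.16 (R 4.3.3, limma 3.58.1) was used with TMM over miRNAs, filterByExpr (minimum count 10, total 15), glmQLFit and glmQLFTest with 1 coefficient per group, and Benjamini-Hochberg adjustment over all arms tested (threshold 0.05): 215 arms in 18 or all 22 NEBNext libraries, 191 in 9 bias-minimized Adults and 207 in 32 libraries of the mir-80 series. The scripts were tested on simulated data. DESeq2 1.42.0, its size factors, total counts, spike-in scaling, no filter, only the groups compared, a replicate block, fits without wide-range miRNAs and leaving out each library were alternatives; scaling on miR-62-3p was added after seeing the data. Ratios used exact permutation tests (scipy 1.17.1), with at least 10 reads per arm; counting error only is covered by the floor of 3 reads.

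Replicate numbers paired the samples, from the data alone (every pair's correlation of deviations over 0.1), in the bias-minimized Adults (0.538 to 0.615 for cdb328 and 0.103 to 0.809 for cdb330 against wild type) and for cdb493 against wild type (0.349 to 0.792).

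All 6 arms of the 3 hairpins are named; beside them, both arms of lin-4, mir-34, mir-71, mir-228 and mir-246 were counted, the more abundant arm with its value, and the 3 most similar arms of each kept strand with at least 10 CPM. The members and lists were chosen with earlier results of these data known.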

Additional observations from a re-analysis of the deposited data

How the results depend on the processing

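Of 2674 alternative values over 173 results, 2492 kept their sign and side of the threshold or crossed 0 without a call, 80 newly passed it, 60 no longer passed and 42 turned round: 22 on miR-62-3p, 18 on the spike-ins and 2 with total counts. The cause of each was not tested.

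On the spike-ins the turned values were, for cdb330 against wild type at L4, 0.53 (miR-238-3p) and 0.59 (miR-239a-3p*); for cdb328 against cdb330 at L4, -0.017 (miR-238-3p) and -0.25 (miR-239a-5p); for Adults against L4 in wild type -0.51 (miR-238-3p), -0.010 (miR-238-5p*), -0.032 (miR-239a-3p*) and -0.17 (miR-239a-5p), in cdb328 -0.12 (miR-238-3p), and in cdb330 -0.73, -0.084, -0.060, -0.70 and -1.05 (the same 4 arms and miR-239b-5p); for the tagged strain 1.25, 1.15, 0.72 and 1.03 (the same 4 arms). With total counts they were -0.27 and -0.0024 for miR-238-3p in Adults against L4 in wild type and cdb330.

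On miR-62-3p they were, for cdb328 against wild type, -0.27 (miR-238-3p), -0.0057 (miR-238-5p*) and -0.58 (miR-239a-5p) at L4, and -0.51, -0.83, -1.18 (miR-239a-3p*) and -1.18 (miR-239a-5p) in Adults, with miR-239b-5p newly called at -1.51. For cdb328 against cdb330 they were -0.26, -0.020 and -0.50 at L4 and -0.30, -0.87 and -0.59 in Adults (miR-238-3p, miR-238-5p*, miR-239a-5p), and for the tagged strain 0.27, 0.22 and 0.045 (the same arms). In the bias-minimized Adults they were -0.27 (miR-238-3p), -0.76 (miR-238-5p*), -0.40 (miR-239a-5p) and -0.32 (miR-239b-5p) for cdb328 and -0.26 (miR-239a-5p) for cdb330, and -0.39 for miR-238-3p with drsh-1 mutant on cdb496.

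The spike-in scale ended the calls of cdb328 in bias-minimized Adults (0.16 for miR-238-3p, 0.026 for miR-239a-5p, 0.12 for miR-239b-5p) and of miR-239b-5p in the tagged strain (-0.95), and those of miR-238-3p on cdb530 (0.072) and cdb496 (0.11), miR-239a-3p* in the tagged null strain (0.12) and miR-238-5p* in cdb328 at L4 against wild type (0.79) and cdb330 (0.20). miR-239a-5p in cdb328 at L4 passed with DESeq2's size factors (0.49), DESeq2 (0.49) and the replicate block (0.50), pairing that the labels do not give. For Adults against L4 in wild type, miR-239a-5p no longer passed with total counts (0.056) or only the groups compared (0.58), nor miR-238-3p without a filter (0.21). In the mir-80 series, miR-239b-5p in drsh-1(cdb263 cdb328) against wild type passed without wide-range miRNAs (1.23), with only the groups compared (1.26) and with DESeq2 (1.28), and miR-239a-5p with only the groups compared (0.92).

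Leaving out 1 library gave 0.145 to 0.746 for miR-239a-5p and -0.506 to 1.22 for miR-239b-5p in cdb328 at L4; 0.202 to 0.272, 0.34 to 0.941 and -0.389 to 1.33 for miR-238-3p, miR-239a-5p and miR-239b-5p in Adults against L4 in wild type; and 0.213 to 0.565 for miR-238-3p in drsh-1(cdb263 cdb328). The replicate block changed no call in the paired comparisons. Depth limits miR-239b-5p with NEBNext, where 10 of 22 libraries held under 10 reads. The biological coefficient of variation was 0.574 for the mir-80 series and 0.598 for bias-minimized Adults (0.290 and 0.283 without wide-range miRNAs), and 0.123 with NEBNext.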
